A study of Cuscuta campestris with 9 samples.

Results

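The primary transcripts of 3 microRNA loci, ccm-IIM-12a, ccm-IIM-27 and ccm-MIR12463b, were counted at full length in haustoria of dodder (Cuscuta campestris), a parasitic plant, beside 123 other microRNA loci and among 2535 intervals in all. They were chosen by name from the table's category of interface-induced microRNA primary transcripts, and the names were picked because these loci had the highest counts of that category: 1102, 1305 and 1725 over all libraries, against 833 for the next locus, ccm-IIM-70. Their high levels are therefore how they were chosen and are described here without a test. Every plant was wild type, of the strain Dotti, and had been grown on beets. Cut shoot tips of 4 to 6 cm were kept for 4 days under far-red light and pressed onto 3% agar, so that the haustoria formed with no host present, and the dissected haustorial regions gave 3 RNA samples. Each RNA sample was divided into an untreated part, a part treated with a decapping enzyme (Dcp) and a part treated with the pyrophosphohydrolase RppH, which makes 9 libraries, 3 per treatment. The libraries held no host interface, so the induction in the category's name was not measured, and the table holds no messenger RNA against which the labelled tissue could be checked.

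A microRNA begins as a longer primary transcript that folds into a hairpin, from which Dicer-like enzymes in plants cut the short mature microRNA. Plant microRNA genes are usually transcribed by RNA polymerase II, whose products carry a 5′ cap, whereas RNA polymerase III leaves a 5′ triphosphate on transcripts such as pre-tRNAs. In dodder, a group of microRNAs accumulates where the haustorium meets the host, and some of them enter the host and direct the cutting of its messenger RNAs. The library ligation used here joins only to a 5′ monophosphate. Dcp trims capped ends to a monophosphate and RppH trims both capped and triphosphate ends, so an RNA that rises with either enzyme is taken in the protocol to be likely capped, and one that rises with RppH only to carry a likely triphosphate.

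All 3 intervals were short and close in length to the rest of their category. On the Ccam0.32 scaffolds, ccm-MIR12463b spans 136 nt of scaffold 7 (1050575 to 1050710, plus strand). ccm-IIM-12a spans 147 nt of the same scaffold (1280002 to 1280148, plus strand), 229291 nt farther on. ccm-IIM-27 spans 150 nt of scaffold 29 (1788882 to 1789031, minus strand). All microRNA intervals ran from 106 to 210 nt with a median of 146 nt and a middle range of 137 to 152 nt, so ccm-MIR12463b lay just under that range, with 26 shorter loci, and the others within it. What annotated genes lie at these positions was not analysed here.

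The loci differed in their neighbourhood. The nearest listed interval to ccm-MIR12463b was ccm-MIR12463d, 6435 nt away on the opposite strand, and ccm-IIM-9, ccm-MIR12463a and ccm-IIM-10a lay within 12507 nt, all on the minus strand. These 4 neighbours had 10, 3, 26 and 18 counts over the 9 libraries. The nearest interval to ccm-IIM-12a was ccm-MIR12464a on the same strand, 6919 nt away, with 26 counts. ccm-IIM-27 was the only microRNA locus listed on its scaffold, and its nearest listed interval was a serine pre-tRNA (1554961 to 1555059, minus strand), 233822 nt away, with 1 count. Because the 3 loci were chosen for the highest counts of the category, lower counts in their neighbours follow from that choice. The median microRNA locus had 11 counts over the 9 libraries.

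**Figure D1:**
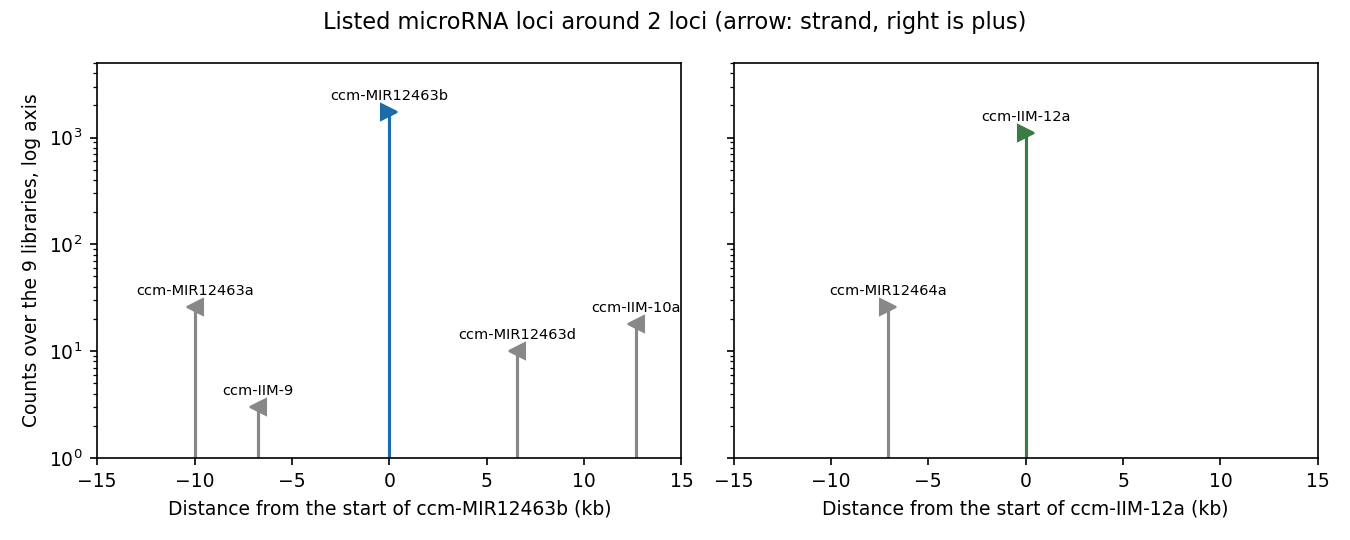
Counts summed over the 9 libraries (log axis) of the microRNA loci listed near ccm-MIR12463b (left) and ccm-IIM-12a (right), by distance in kb from the start of each; arrows point right for the plus strand. ccm-MIR12463b reached 1725 counts beside neighbours of 3 to 26 counts, and ccm-IIM-12a reached 1102 beside a neighbour of 26. Both loci were chosen for their high counts, so lower neighbours follow from the choice.

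Loci that share the stem of a name with one of the 3 had fewer counts, which follows from the choice of the 3 for abundance. For scale, the median microRNA locus had 11 counts. The stem MIR12463 has 4 listed loci, of which ccm-MIR12463b held 97.3% of 1772 counts. Its relatives ccm-MIR12463a, ccm-MIR12463c and ccm-MIR12463d had 26, 11 and 10 counts. The stem IIM-12 has 2 listed loci, and ccm-IIM-12a held 92.4% of their 1193 counts, with 91 for ccm-IIM-12b on scaffold 31 (136245 to 136401, plus strand). The sources used here do not say to which copy a read was given when it fitted several, so the division of counts among loci of one stem is uncertain if their sequences are alike.

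Library totals, recovered from the TPM, ran from 24974484 to 46034864. The microRNA category held 28 to 66 counts in untreated libraries, 214 to 837 after Dcp and 1502 to 4680 after RppH, which is 1.97% to 13.6% of the listed counts. Each count equalled 0.0217 to 0.0400 TPM, and 0 counts allow a level of up to 0.0652 to 0.120 TPM (3 counts; intervals and limits given here cover counting error only). TPM here is a count relative to the library total, with no scaling by length. Nothing in the labels tells if the RNA samples were taken from different batches of plants, so any p-value reflects the spread among these libraries alone. RNA sample 3 stood apart: its Dcp to RppH ratio was the lowest of the 3 RNA samples for 17 of the 18 microRNA loci with at least 100 counts and for U1, and each ratio below is given by RNA sample for that reason.

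ccm-MIR12463b had the most counts of the category and was the only one of the 3 seen in every library. In RNA samples 1, 2 and 3 it had 17, 4 and 4 counts untreated, 157, 119 and 37 after Dcp, and 394, 199 and 794 after RppH. Its TPM was 0.411, 0.0869 and 0.151 untreated, 6.12, 2.91 and 1.28 after Dcp, and 14.3, 7.97 and 23.8 after RppH. Treatments did not overlap: every RppH library lay above every Dcp library, and every Dcp library above every untreated one. Within a treatment the highest TPM was 4.73 times the lowest untreated, 4.80 times after Dcp and 2.99 times after RppH.

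ccm-IIM-27 was almost unseen without an enzyme. It had 0, 0 and 6 counts untreated and 229, 214 and 642 after RppH, and after Dcp it had 214 over the 3 libraries, of which 70 were in RNA sample 1 and 18 in RNA sample 3, so that RNA sample 2 held the most. Its TPM was 0, 0 and 0.227 untreated, 2.73, 3.09 and 0.620 after Dcp, and 8.34, 8.57 and 19.2 after RppH. Treatments again did not overlap, but the Dcp library of RNA sample 3 came within 2.73-fold of its untreated partner, whereas in RNA samples 1 and 2 the level after Dcp was higher by at least 37.6-fold in one and at least 47.4-fold in the other (against 3 counts in each untreated library).

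Among the 3 loci, ccm-IIM-12a had the highest levels after Dcp relative to those after RppH. It had 2, 5 and 0 counts untreated, 135, 153 and 24 after Dcp, and 193, 169 and 421 after RppH. In TPM these were 0.0484, 0.109 and 0 untreated, 5.26, 3.75 and 0.827 after Dcp, and 7.03, 6.77 and 12.6 after RppH. Treatments did not overlap here either, though the highest Dcp library and the lowest RppH library were close (5.26 and 6.77 TPM).

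**Figure D2:**
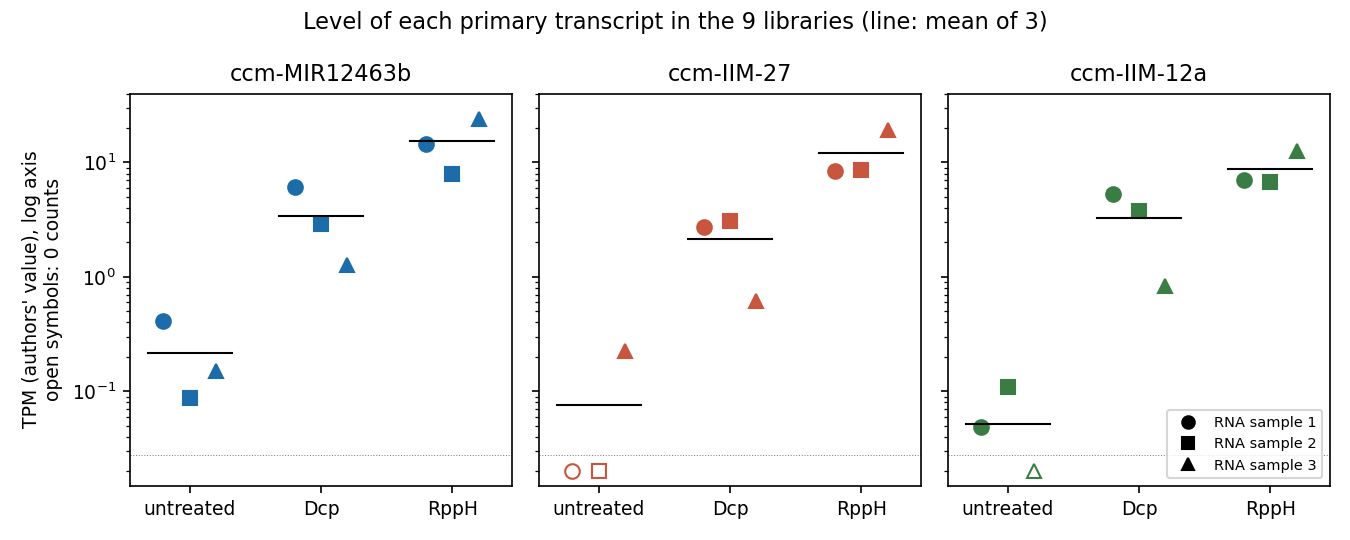
TPM (authors' value, log axis) of each primary transcript in the 9 libraries; symbols mark the RNA sample, lines the mean of 3 libraries, and open symbols below the dotted line libraries with 0 counts. RNA sample 3 was the lowest library after Dcp and the highest after RppH for all 3 loci.

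RNA sample 3 moved all 3 loci the same way. Its Dcp library was the lowest of the Dcp libraries and its RppH library the highest of the RppH libraries for each locus. Over the whole category, microRNA made up 5.31%, 4.56% and 1.97% of listed counts in the Dcp libraries of RNA samples 1, 2 and 3, and 10.2%, 11.1% and 13.6% in the RppH libraries. What sets RNA sample 3 apart was not tested.

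TPM was also divided by the interval's length in kb. The counts are of full-length transcripts, so a longer interval need not gather more of them. Orders per kb can therefore differ from those of the undivided TPM. Per kb, ccm-MIR12463b came first after RppH, then ccm-IIM-27 and last ccm-IIM-12a in all 3 RNA samples. Their means were 113 ± 58.6, 80.3 ± 41.5 and 59.9 ± 22.5 TPM per kb (SD, n = 3 each). The means of neighbours in that order differed by less than the spread between libraries. The loci share that spread, because they were counted in the same libraries, so it does not measure differences within a library. Such differences per kb were not tested. In RNA sample 2 the first and second were at 58.6 and 57.1 TPM per kb. Undivided, these 2 changed places in RNA sample 2, with 8.57 TPM for ccm-IIM-27 and 7.97 for ccm-MIR12463b. After Dcp the order per kb was not the same. Per kb, ccm-IIM-27 came last in all 3 RNA samples, and ccm-IIM-12a came first in RNA sample 2, with 25.5 TPM per kb against 21.4 for ccm-MIR12463b. Undivided, ccm-IIM-27 was above ccm-MIR12463b in RNA sample 2 after Dcp, at 3.09 and 2.91 TPM. The Dcp means were 25.3 ± 18.1, 14.3 ± 8.88 and 22.3 ± 15.3 TPM per kb (SD, n = 3 each) for ccm-MIR12463b, ccm-IIM-27 and ccm-IIM-12a. The difference between the means of ccm-MIR12463b and ccm-IIM-12a was within the spread between libraries, and its direction was not the same in all RNA samples.

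Together the 3 loci held 40.4% of the 10223 microRNA counts of all libraries. In RNA samples 1, 2 and 3 their joint share was 28.8%, 32.1% and 32.3% untreated, 49.3%, 47.6% and 36.9% after Dcp, and 38.3%, 38.7% and 39.7% after RppH. Shares in the 3 RppH libraries were nearly the same, although their microRNA counts ranged from 1502 to 4680. The untreated shares rested on 19, 9 and 10 counts, and their 95% exact binomial (Clopper-Pearson) intervals reached from 15.9% to 52.4% over the 3 libraries.

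The shares of single loci varied between libraries. ccm-MIR12463b held 25.8%, 14.3% and 12.9% of microRNA counts untreated, 21.4%, 14.2% and 17.3% after Dcp, and 18.5%, 13.2% and 17% after RppH. ccm-IIM-27 held 0%, 0% and 19.4% untreated, where 0 counts allow up to 4.55% and 10.7% in RNA samples 1 and 2. Its share was 9.52%, 15.1% and 8.41% after Dcp and 10.8%, 14.2% and 13.7% after RppH. For both loci the Dcp and RppH shares overlapped.

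Of the microRNA counts, ccm-IIM-12a took a larger share after Dcp than after RppH. Of all listed counts its mean share was smaller, at 0.677% after Dcp and 1.13% after RppH. That did not hold in RNA sample 1, with 0.975% after Dcp and 0.920% after RppH. In RNA samples 2 and 3 it was 0.833% and 0.221% after Dcp, and 1.24% and 1.22% after RppH. Of the microRNA counts it held 3.03%, 17.9% and 0% untreated. In RNA sample 3, 3 counts in place of 0 would be 9.68% (upper end of the exact binomial interval 11.2%). After Dcp its share was 18.4%, 18.3% and 11.2%, and after RppH it was 9.06%, 11.3% and 9.0%. The mean shares were 16.0% ± 4.10 and 9.77% ± 1.28 (SD, n = 3 each), a difference of 6.18 percentage points, with Dcp above RppH in 3 of 3 RNA samples. The groups overlapped by a narrow margin, and the exact two-sided permutation p was 0.2, where 3 against 3 libraries cannot go below 0.1. For ccm-MIR12463b the difference was 1.39 percentage points, also with Dcp above RppH in 3 of 3 RNA samples (exact permutation p = 0.6). For ccm-IIM-27 it was −1.91, with Dcp above RppH in 1 of 3 (exact permutation p = 0.5). Paired by RNA sample, the exact sign-flip permutation p was 0.25 for ccm-IIM-12a and for ccm-MIR12463b, the smallest that 3 pairs allow, and 0.5 for ccm-IIM-27. These 3 comparisons were the whole family, and none could pass 0.05 before or after adjustment.

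**Figure D3:**
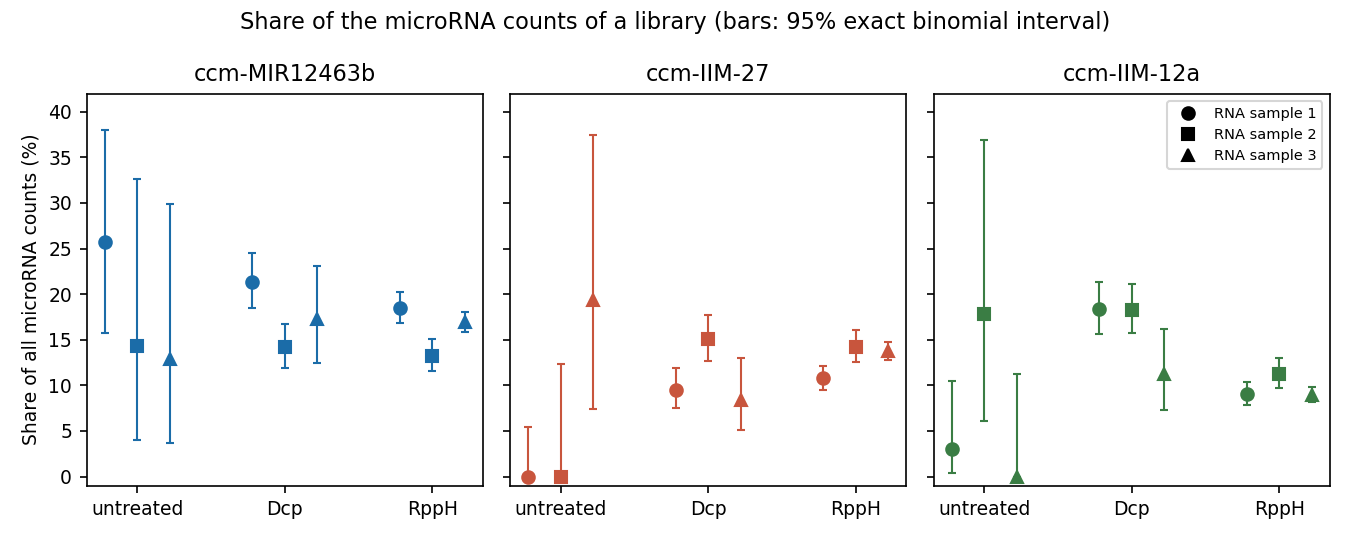
Share of all microRNA counts of a library (%) held by each locus, by treatment and RNA sample, with 95% exact binomial intervals. The shares of ccm-IIM-12a were 11.2% to 18.4% after Dcp and 9.0% to 11.3% after RppH, while those of the other loci overlapped more widely; untreated libraries had only 28 to 66 microRNA counts.

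The ratio of the Dcp to the RppH level, which the protocol reads against caps and triphosphates, was under 1 for every locus in every RNA sample. For ccm-MIR12463b it was 0.426, 0.366 and 0.0536 in RNA samples 1, 2 and 3, with 95% counting intervals of 0.352 to 0.514, 0.289 to 0.461 and 0.0375 to 0.0745. For ccm-IIM-27 it was 0.327, 0.360 and 0.0322, with intervals of 0.247 to 0.429, 0.287 to 0.451 and 0.0190 to 0.0514. For ccm-IIM-12a it was 0.749, 0.554 and 0.0656, with intervals of 0.596 to 0.937, 0.442 to 0.693 and 0.0415 to 0.0989. RNA samples 1 and 2 were close to each other and RNA sample 3 was far lower, so that the highest ratio was 7.96, 11.2 and 11.4 times the lowest, in the order of the loci above. This spread between RNA samples was much wider than the counting error, and no mean ratio over the 3 describes it well.

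Capped and triphosphate RNAs in the same libraries gave the scale for these ratios. The dominant copy of U1, the capped snRNA that pairs with 5′ splice sites (scaffold 1, 2523679 to 2523838, plus strand), had Dcp to RppH ratios of 1.01, 1.28 and 0.551. Pre-tRNAs, which RNA polymerase III makes, had ratios of 0.189, 0.192 and 0.0980 for their summed counts. The other 123 microRNA loci together had ratios of 0.304, 0.292 and 0.0550. In RNA samples 1 and 2 the 3 loci lay between pre-tRNAs and U1, and in RNA sample 3 they lay under both. No untreated level was subtracted from these ratios. Summed pre-tRNA counts were 904, 604 and 581 untreated against 1170, 1354 and 827 after Dcp. A large part of the pre-tRNA level after Dcp was thus present without an enzyme. Where the loci lie relative to pre-tRNAs without that part was not tested. Relative to U1, ratios of ccm-MIR12463b were 0.420, 0.287 and 0.0973, those of ccm-IIM-27 were 0.323, 0.282 and 0.0585, and those of ccm-IIM-12a were 0.738, 0.434 and 0.119, so RNA sample 3 stayed the lowest on this scale too.

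On the log2 scale the ratios of the 3 loci, in the same order, were below that of U1 by means of −2.14 ± 1.10, −2.52 ± 1.37 and −1.57 ± 1.35 (SD, n = 3). The difference was negative in 3 of 3 RNA samples for each locus. The exact two-sided sign-flip permutation p was 0.25 in each case, the smallest that 3 pairs allow. The smallest of the 9 differences was −0.44, for ccm-IIM-12a in RNA sample 1.

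The 3 loci kept one order of ratios among themselves. ccm-IIM-12a was highest, ccm-MIR12463b second and ccm-IIM-27 lowest in each of the 3 RNA samples, although all ratios fell together in RNA sample 3. Library totals cancel in these comparisons. The log2 difference between ccm-IIM-12a and ccm-IIM-27 was 1.19, 0.62 and 1.02 (mean 0.95 ± 0.29, SD, n = 3), which is 1.93-fold. Between ccm-IIM-12a and ccm-MIR12463b it was 0.81, 0.60 and 0.29 (mean 0.57 ± 0.26), and between ccm-MIR12463b and ccm-IIM-27 it was 0.38, 0.02 and 0.73 (mean 0.38 ± 0.36). The first mean was over 3 times its SD, and the last was about as large as its SD. For each of the 3 pairs the exact sign-flip permutation p was 0.25, the smallest possible. Within single RNA samples, the odds ratio of Dcp to RppH counts of ccm-IIM-12a against ccm-IIM-27 was 2.29 (95% interval 1.60 to 3.29), 1.54 (1.11 to 2.12) and 2.03 (1.04 to 4.03), and these intervals compare libraries, not treatments. The interval of ccm-IIM-12a against ccm-MIR12463b included 1 in RNA sample 3 (1.22, 0.690 to 2.13), and those of ccm-MIR12463b against ccm-IIM-27 did in all 3 RNA samples, so the order was not resolved there at this depth.

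**Figure D4:**
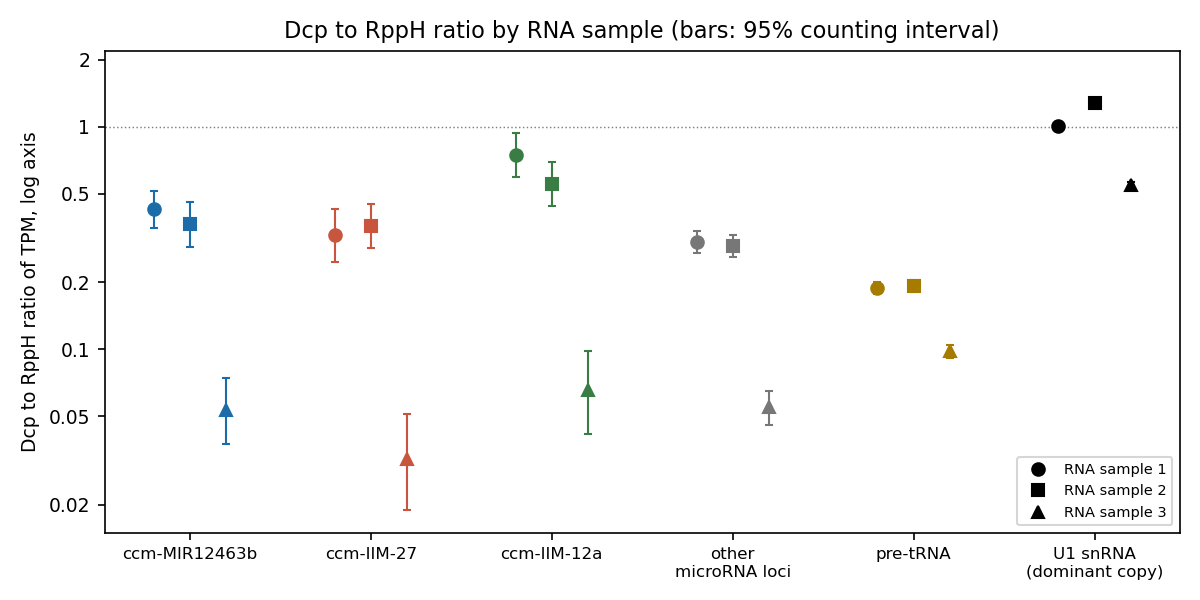
Dcp to RppH ratio of TPM (log axis) in each RNA sample, with 95% counting intervals, for the 3 loci, the other 123 microRNA loci, pre-tRNAs and the dominant U1 copy. RNA sample 3 (triangles) was the lowest for each of them, at 0.0322 to 0.0656 for the 3 loci and 0.551 for U1.

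Among the 18 microRNA loci with at least 100 counts, with the libraries of each enzyme pooled, Dcp to RppH ratios ran from 0.0531 to 0.483 with a median of 0.178. ccm-IIM-12a stood at place 3 with 0.358 (95% counting interval 0.313 to 0.409), under ccm-MIR12490b at 0.483 and ccm-MIR12490a at 0.401. ccm-MIR12463b stood at place 8 with 0.203 (0.179 to 0.229) and ccm-IIM-27 at place 10 with 0.177 (0.152 to 0.205). The highest counts of the category thus did not go with the highest or lowest ratios. Pooled ratios give RNA samples with more counts more weight and hide the gap to RNA sample 3.

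**Figure D5:**
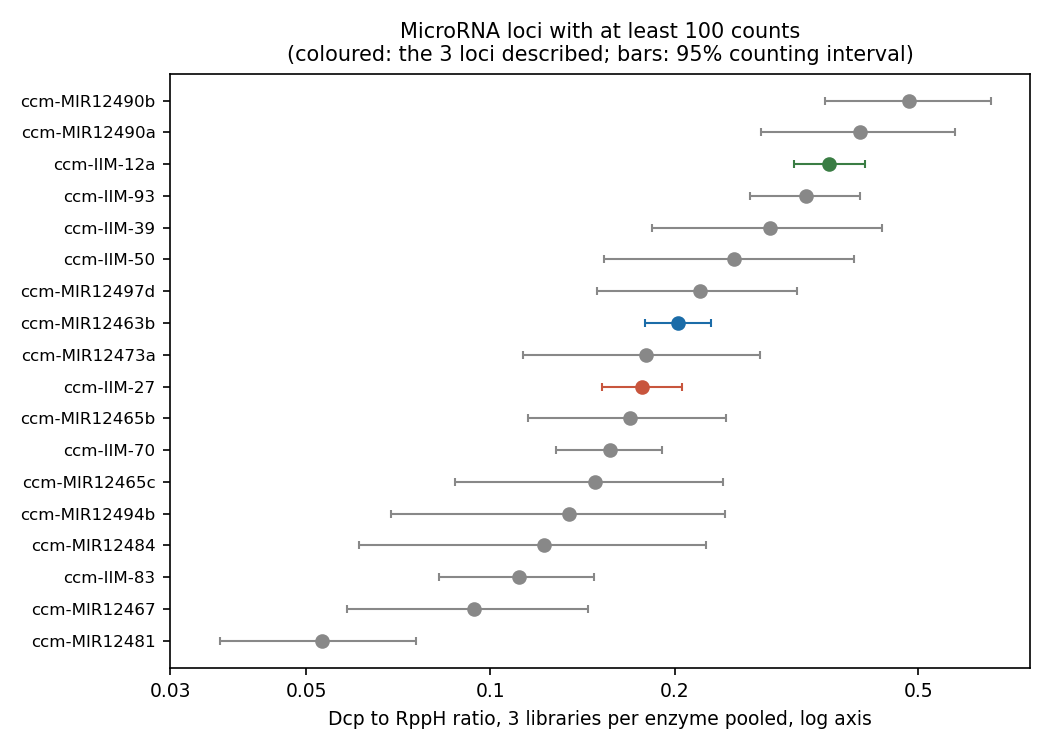
Dcp to RppH ratio (log axis) of the 18 microRNA loci with at least 100 counts, over the 3 libraries of each enzyme pooled, with 95% counting intervals. ccm-IIM-12a lay at 0.358, near the top, and ccm-MIR12463b and ccm-IIM-27 lay near the median of 0.178.

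The named relatives did not all share the ratio. ccm-IIM-12b had 1, 0 and 0 counts after Dcp and 26, 16 and 48 after RppH in RNA samples 1, 2 and 3, where ccm-IIM-12a had 312 after Dcp and 783 after RppH in all. The odds ratio of Dcp to RppH counts of ccm-IIM-12a against ccm-IIM-12b was 35.8 over the pooled libraries, with a 95% counting interval of 6.21 to 1437 that reflects the single Dcp count. With 0 Dcp counts for ccm-IIM-12b in RNA samples 2 and 3, the direction there could not be otherwise. The 3 relatives of ccm-MIR12463b had 4 counts after Dcp and 43 after RppH, all 4 of the former from ccm-MIR12463d in RNA sample 3. Against their sum the odds ratio of ccm-MIR12463b was 2.42 (0.872 to 9.37), so that difference was not detectable at this depth. Singly they went both ways. Against ccm-MIR12463d, with 4 Dcp and 6 RppH counts, it was 0.339 (0.0798 to 1.64). ccm-MIR12463a and ccm-MIR12463c had 0 Dcp counts against 26 and 11 after RppH, which fixed the direction. The lower interval limits there were 1.47 and 0.563, and 23 of the 26 counts were from RNA sample 3.

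Over all features, edgeR (quasi-likelihood test, Benjamini-Hochberg adjustment at 0.05) was fitted to the 34 intervals with at least 1 TPM in at least 3 libraries, relative to the library totals. All 3 loci passed that filter, with 6 other microRNA loci. Compared with untreated RNA, all 3 were called higher after RppH, where 97.1% of tested intervals were, and all 3 after Dcp, where 58.8% were. With a filter of at least 10 counts over all libraries the calls for the 3 loci were the same and the shares of all 442 intervals called were 86.0% and 9.50%. The loci were chosen for abundance, and they reached the TPM filter through the enzyme libraries, so nothing is read from these counts. The median log2 difference of the 3 from untreated RNA was 7.15 after RppH and 5.07 after Dcp, against 6.34 and 3.24 over all 34 intervals. Over the 6 other microRNA loci it was 7.09 and 3.75. The medians of the 3 carry the same choice for abundance, so nothing is read from them either. Of the 6 other microRNA loci, 6 were called higher after RppH and 6 after Dcp (5 in the blocked fit, where ccm-IIM-70 had an adjusted p of 0.0597), and of the 66 others with at least 10 counts, 60 and 17 were.

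RppH exceeded Dcp past the threshold for 2 of the 3 loci, where 64.7% of tested intervals were called higher, and the median log2 difference was 2.16 against 2.32 over all 34 intervals. The log2 difference of ccm-MIR12463b was 2.16 (SE 0.713), with an edgeR adjusted p of 0.0108, and RppH was the higher in 3 of 3 RNA samples. It fell short without RNA sample 3 (1.31, adjusted p = 0.123), without the RppH library of that sample (1.70, adjusted p = 0.0535) and with no filter on low values (2.16, adjusted p = 0.0598). That of ccm-IIM-27 was 2.49 (SE 0.815, edgeR adjusted p = 0.0108), which fell short without RNA sample 2 (3.04, adjusted p = 0.0507), and when the RNA sample was fitted as a block (2.15, adjusted p = 0.124). That of ccm-IIM-12a was 1.43 (SE 0.695), short of the threshold (edgeR adjusted p = 0.0727), and was called without untreated replicate 1 or 2 (adjusted p = 0.0371 and 0.0461) or Dcp replicate 1 (1.94, adjusted p = 0.0383). That a threshold was missed does not make the levels equal. Scaling to the tested intervals ended both calls: with TMM the log2 differences of ccm-MIR12463b, ccm-IIM-27 and then ccm-IIM-12a were 0.32, 0.63 and −0.35 (adjusted p = 0.561, 0.356 and 0.561), and with median of ratios −0.23, 0.14 and −0.87 (adjusted p = 0.773, 0.923 and 0.264). With the block, 1 of the 3 loci was called. With the filter of at least 10 counts, 2 of the 3 were, where 51.8% of intervals were.

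The 6 other microRNA loci past the filter gave the nearest points of comparison. For ccm-MIR12481, ccm-MIR12467, ccm-IIM-83, ccm-IIM-70 and ccm-MIR12497d the log2 difference of RppH from Dcp was 4.19, 3.28, 2.98, 2.74 and 2.31, each past the threshold (edgeR adjusted p = 4.46e-05, 0.00185, 0.00336, 0.00336 and 0.0306). In the blocked fit ccm-MIR12497d fell short (2.88, adjusted p = 0.110). For ccm-IIM-93, which had 0 untreated counts in all 3 libraries, it was 1.47 and did not pass (edgeR adjusted p = 0.0509). Among these 9 loci ccm-IIM-12a and ccm-IIM-93 had the smallest differences, at 1.43 and 1.47, or 1.73 and 1.25 in the blocked fit, where their order turned. Differences between loci in this contrast were tested only for the pairs given above.

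The loci whose log2(TPM + 1) values over the 9 libraries were most like those of the 3 were largely each other. For ccm-MIR12463b the closest of 17 candidates were ccm-IIM-12a (Pearson r = 0.977), ccm-IIM-27 (0.975) and ccm-IIM-93 (0.968). For ccm-IIM-27 they were ccm-IIM-70 (0.982), ccm-MIR12463b (0.975) and ccm-IIM-12a (0.971), and for ccm-IIM-12a they were ccm-MIR12463b (0.977), ccm-IIM-27 (0.971) and ccm-MIR12490a (0.947). The points share their libraries and fall into 3 treatments, which set most of each r, so these values are descriptions. The 1 added to each TPM weighs most on loci of low level, so likeness among loci chosen for high counts can reflect that choice.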

How the data were processed

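Per the labels' protocols, total RNA was treated with Dcp, RppH or no enzyme, and splint-ligation libraries without size selection kept stranded RNAs of about 10 to 400 nt. The deposited table gives whole-number counts of full-length transcripts per interval and library, unnormalized as the file header and values show, and the authors' TPM, which equalled the count divided by 1 constant per library (largest relative deviation 3.11e-15). The library total was recovered from that constant, and what it counts is not stated. Per the submitters' processing notes, cutadapt, Bowtie2, SAMtools and bedtools were used, and versions and parameters are not given in the sources used here. Replicates were not pooled. The supplied gene table names another assembly and was not used here.

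Counts were tested with edgeR 4.0.16 (R 4.3.3) with library totals as offsets, no further normalization factor and no block, in 1 fit over 9 libraries. The tests were two-sided, and SEs were back-calculated from the F statistic. DESeq2 1.42.0, TMM, median of ratios, other filters, the RNA sample as a block and left-out libraries were alternatives. The script was tested on simulated data. Ratios, shares and exact tests used SciPy 1.17.1. Intervals are 95% exact binomial, or for odds ratios exact conditional. A fold against 0 counts uses 3 counts per library. Per the labels, a shared number marks a shared RNA sample, which makes the libraries paired. Over 34 intervals, deviations from group means correlated between same-numbered libraries by a median of 0.144 (−0.267 to 0.482). Between libraries of different numbers the median was −0.0667 (−0.562 to 0.464), so the ranges overlapped widely. Besides the 3 loci, the text names other microRNA loci past the filter, loci of the same name stem, nearest intervals, the 3 most alike of the loci with at least 100 counts, and the dominant U1 copy; ccm-MIR12490b and the neighbours beyond the nearest were named after their values were seen. The members, lists and rules were chosen with earlier results of these data known.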

Additional observations from a re-analysis of the deposited data

How the results depend on the processing

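All differences from the library total depend on that scale. TMM and median of ratios, which take the tested intervals as reference, moved RppH against untreated by 3.20 and 3.91 on the log2 scale, Dcp against untreated by 1.32 and 1.48, and RppH against Dcp by 1.88 and 2.44. With TMM, 24 intervals were called higher and 4 lower after RppH than untreated, and 14 higher and 1 lower after Dcp. With median of ratios, 21 were called higher and 4 lower after RppH, and 13 higher and 1 lower after Dcp. RppH against Dcp gave 7 higher and 10 lower with TMM and 4 higher and 10 lower with median of ratios. There the log2 difference of ccm-IIM-12a turned to −0.35 and −0.87, and that of ccm-MIR12463b to −0.23 with median of ratios, none past the threshold (adjusted p = 0.561, 0.264 and 0.773). For ccm-IIM-27 it was 0.63 and 0.14, and for ccm-MIR12463b 0.32 with TMM, not past it either (adjusted p = 0.356, 0.923 and 0.561).

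Without a filter 220, 34 and 80 of 2469 intervals were called higher in RppH against untreated, Dcp against untreated and RppH against Dcp, and with at least 10 counts 380, 42 and 229 of 442, since more intervals were tested. The main counts were 33, 20 and 22 of 34, with 0 lower in each, also at an unadjusted p under 0.05 and with DESeq2. With the RNA sample as a block they were 34, 18 and 20, and the block changed no other call of the 3 loci than that of ccm-IIM-27 in RppH against Dcp. As a share of all listed counts, ccm-MIR12463b averaged 0.979% untreated, 0.708% after Dcp and 1.88% after RppH, ccm-IIM-27 averaged 0.453% after Dcp and 1.51% after RppH, and ccm-IIM-12a 0.677% and 1.13%. On that scale the means of ccm-MIR12463b and ccm-IIM-12a were lower after Dcp than after RppH, where their mean shares of microRNA counts were higher. For ccm-IIM-12a this did not hold in RNA sample 1, with 0.975% after Dcp and 0.920% after RppH. The 2 scales differ by the part of listed counts that is microRNA, which was 1.97% to 5.31% after Dcp and 10.2% to 13.6% after RppH. Why that part was smaller after Dcp was not tested. The order of Dcp to RppH ratios among the 3 loci and their place below U1 kept their direction with 0.5 counts added, without each RNA sample and with all snRNA in place of U1. The 6 to 25 untreated counts per locus limit every fold against untreated RNA.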
